A study of Mus musculus with 12 samples.

Results

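The genes described here are 8 members of the PARP family, the ADP-ribosyltransferases Parp1, Parp3, Parp8, Parp9, Parp10, Parp11, Parp12 and Parp14, and Dtx3l, the ubiquitin ligase that partners Parp9. They are the 9 rows, of 48440 genes in the deposited count table, whose symbol is one of those names. The table comes from RNA-seq of mouse bone-marrow-derived macrophages, cells grown in culture from marrow precursors, in 12 libraries. Macrophages labelled CKO or WT were treated with interferon-gamma (IFN-γ, 100 U/mL, 24 h), treated with interleukin-4 (IL-4, 20 ng/mL, 24 h) or left untreated, which gives 6 groups of 2 libraries. The labels do not say which allele or Cre driver the CKO cells carry, nor the strain, sex or age of the mice, nor if the paired libraries of each group stem from separate mice. The p-values below therefore measure the spread between these libraries, which may be technical. The title of the series concerns IRF8, a transcription factor, in macrophages, and the layout asks how the genotype and each cytokine alter RNA levels.

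PARP enzymes take NAD and attach its ADP-ribose part to proteins, either as a chain or as a single unit. Parp1 makes chains at DNA breaks, while most of the others add single units, and several of those are known as interferon-stimulated genes. In macrophages, Parp9 with Dtx3l is known for promoting the response to interferon, and Parp14 for restraining it and for acting with STAT6, the factor downstream of IL-4.

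Library totals ran from 21287725 to 32717379 counts. The first untreated CKO library stood apart, with 1.52% of its counts on mitochondrial genes (95% Wilson interval 1.51 to 1.52, counting error only) against 2.12% to 3.25% in the other 11 libraries. The CKO label names no deleted gene, and Irf8 was higher in the libraries that carry it than in WT. Irf8 held 1188 ± 21.8, 154 ± 20.6 and 270.1 ± 31.7 CPM (counts scaled to library size, mean ± SD, n = 2) in CKO given IFN-γ, given IL-4 and untreated. In WT it held 507 ± 7.77, 68.2 ± 3.69 and 91.1 ± 0.228 CPM. Counts over a whole gene do not show the loss of a single exon, so this check leaves the label unresolved, and every direction between genotypes below is that of libraries labelled CKO. Lyz2, which encodes lysozyme, a macrophage product, was at 12.6 to 28.0 CPM in the CKO-labelled libraries and 5842 to 11853 CPM in WT. It is 1 of 8 macrophage markers checked. After IFN-γ, 5 of them were higher and 2 lower in CKO past edgeR's test (median log2 fold change 0.61), where 10.4% and 8.01% of all genes were. Untreated, 3 were higher and 2 lower (median -0.10), where 8.6% and 9.37% of all genes were. After IL-4, 0 were higher and 3 lower (median -0.22), where 2.96% of all genes changed in either direction. None of the 8 macrophage markers was at 0 in any group. Of 6 T and NK cell markers, Cd3e was at 0 in all 6 groups, but Cd4 was not. Cd4, the 1 of them tested, was at 14.4 and 18.8 CPM in untreated CKO and 2.62 and 2.93 CPM in untreated WT. It was higher in CKO past edgeR's test untreated, after IFN-γ and after IL-4.

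IFN-γ raised 8 of the 9 genes in each genotype, and Parp1 was the exception. In the libraries labelled CKO, 8 of 9 rose where 14.7% of the 16292 genes tested did, and in WT 8 of 9 rose where 12.4% did. The 9 genes were chosen with earlier results of these data known, so these shares are a description and not a test. The median log2 fold change over the 9 genes was 2.43 in CKO and 2.57 in WT, against medians near 0 over all genes tested. These 8 genes stayed past the test (edgeR's quasi-likelihood F test, adjusted p under 0.05 over all genes) in all 176 fits under other settings, with log2 fold changes between 1.09 and 3.19. All 9 genes passed the filter on low counts, with raw counts between 157 (Parp8) and 17488 (Parp14) in a library. In bulk RNA, more RNA per cell cannot be told apart from more cells that express the gene.

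**Figure D1:**
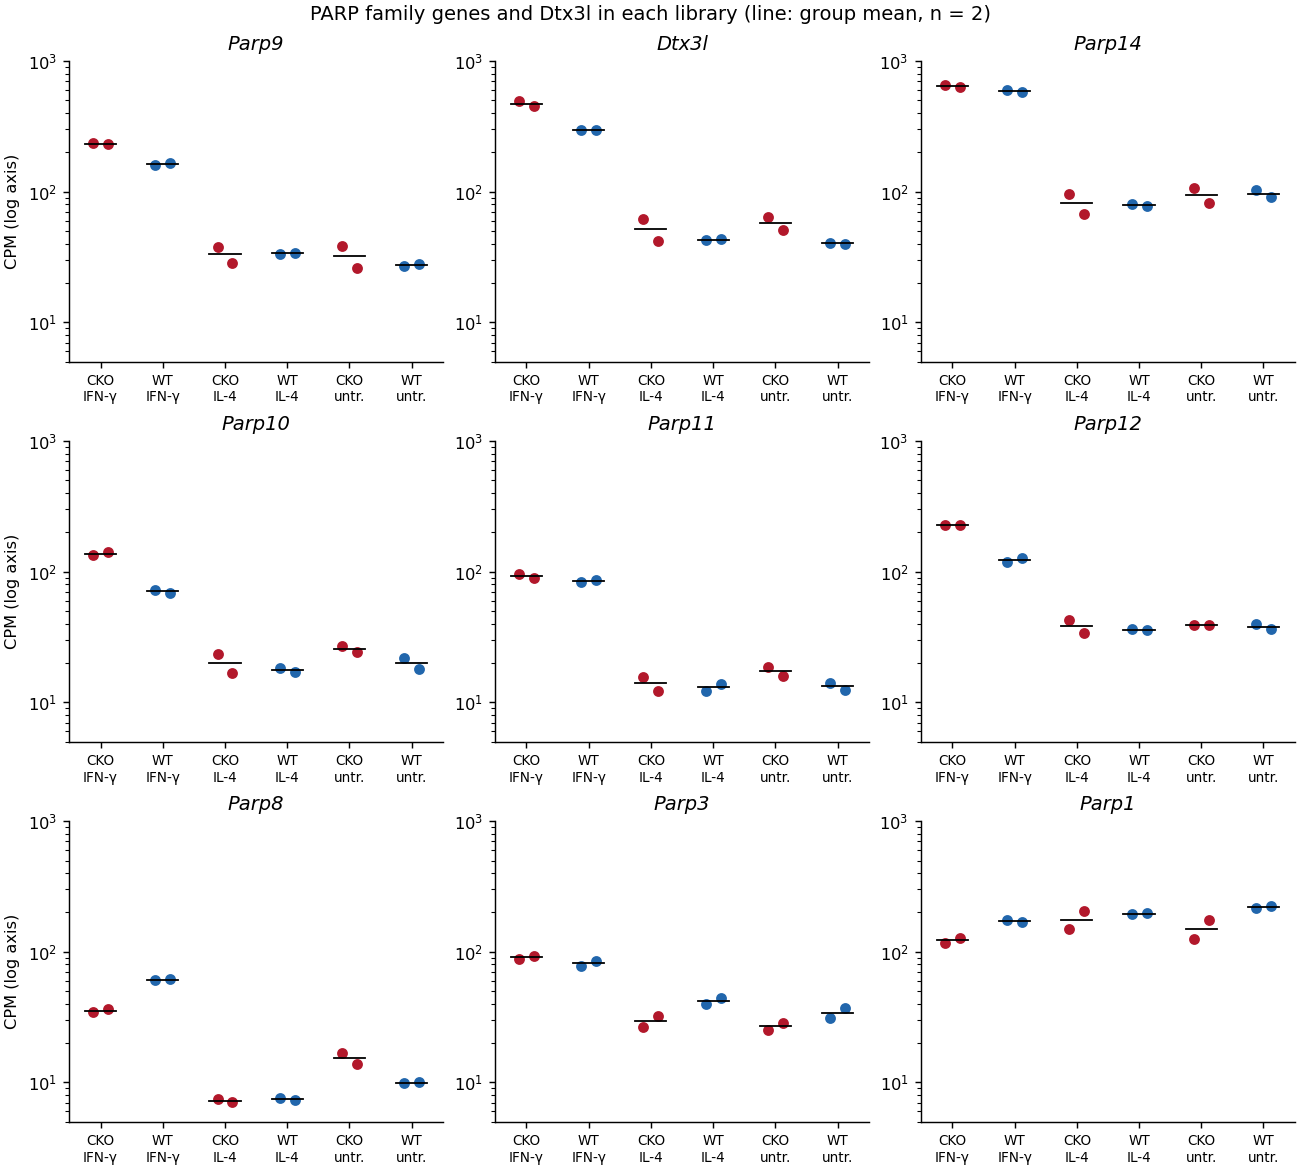
Level of each gene in each of the 12 libraries, in CPM on a log axis, with CKO in red and WT in blue; the line is the mean of the 2 libraries. Parp9, Dtx3l, Parp14, Parp10, Parp11, Parp12, Parp8 and Parp3 are higher in all 4 IFN-γ libraries than in the other 8, whereas the Parp1 libraries overlap.

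Parp9, a macrodomain protein that binds ADP-ribose, and Dtx3l form a complex that modifies ubiquitin and histones. Their genes lie head to head on mouse chromosome 16 (GRCm38, GENCODE M21): Parp9 at chr16:35938470-35972605 on the plus strand and Dtx3l at chr16:35926511-35939151 on the minus strand. The gene bodies overlap by 682 bp and their exons by 458 bp on opposite strands. How the counting treated strand is not given in the sources used here. The assignment of reads in that overlap is uncertain. Parp14 follows on the minus strand at chr16:35832874-35871544, and 54967 bp separate its start from the far end of Dtx3l. Of the Parp14 exons, 110 bp overlap those of Gm49730 on the same strand. The sequence around the Dtx3l start is shown because it lies partly in this shared head-to-head interval. It holds matches to 2 of the motifs searched, both after the start. It is RefSeq's promoter window on GRCm38.p6, chr16:35938978-35939277, minus strand, which runs from 250 bases before to 50 after the start. Capitals mark the matches.
Dtx3l: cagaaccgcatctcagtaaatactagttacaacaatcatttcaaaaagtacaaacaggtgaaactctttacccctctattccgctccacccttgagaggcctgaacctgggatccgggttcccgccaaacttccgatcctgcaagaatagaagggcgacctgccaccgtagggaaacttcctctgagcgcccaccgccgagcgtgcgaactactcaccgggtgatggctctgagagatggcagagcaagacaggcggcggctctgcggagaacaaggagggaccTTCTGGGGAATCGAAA

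The search covered 4 motifs on both strands, named for what they are known to bind or answer to: TTCNNNGAA (GAS, interferon-gamma activated site), TTCNNNNGAA (the spacing preferred by STAT6), GAAANNGAAA or TTTCNNTTTC (ISRE, interferon response) and GGAANNGAAA or TTTCNNTTCC (an Ets and IRF element). They occur in 8.30%, 6.95%, 3.44% and 2.72% of the 32851 RefSeq promoter windows of the same length. The Dtx3l window has TTCTGGGGAA, a match to the STAT6 spacing, at bases 35 to 44 after the start. It overlaps GGAATCGAAA, a match to the Ets and IRF element, at bases 41 to 50. A match says only that these letters are present.

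Dtx3l reached 494 and 452 CPM in the 2 CKO libraries given IFN-γ, against 63.7 and 51.0 CPM in untreated CKO. In WT it reached 296 and 295 CPM with IFN-γ, against 40.8 and 39.5 CPM untreated. The groups did not overlap in either genotype, and Dtx3l had the largest log2 fold change of the 9 genes in both, at 3.04 ± 0.17 in CKO (edgeR adjusted p = 8.45e-08) and 2.88 ± 0.17 in WT (edgeR adjusted p = 1.53e-07). Parp9 was at 234 and 232 CPM in CKO with IFN-γ, against 38.6 and 26.0 CPM in untreated CKO. In WT, Parp9 was at 160.3 and 165 CPM with IFN-γ, against 27.0 and 28.0 CPM untreated. Again every IFN-γ library lay above every untreated one, with log2 fold changes of 2.85 ± 0.17 in CKO and 2.57 ± 0.17 in WT. Parp14 was at 658 and 628 CPM in CKO with IFN-γ, against 106 and 82.5 CPM in untreated CKO. In WT its levels were 596 and 575 CPM with IFN-γ, against 102 and 91.1 CPM untreated. Its rise was 2.77 ± 0.17 in CKO and 2.60 ± 0.17 in WT on the log2 scale, and with IFN-γ both CKO libraries lay above both WT ones. For none of these 3 genes did the IFN-γ response differ between genotypes past the test (CKO minus WT 0.28 ± 0.23 for Parp9, 0.17 ± 0.23 for Dtx3l and 0.17 ± 0.22 for Parp14; edgeR adjusted p = 0.717, 0.85 and 0.845).

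The rise of these 3 genes was set beside that of the genes around them. Of 20 protein-coding genes that start within 500 kb of the Parp9 start, 11 were tested, and 8 of those are not described here. With IFN-γ, 1 of those 8 rose and 1 fell in CKO, where 26.6% of all genes changed in either direction. In WT, 2 rose and 1 fell, where 24.1% changed. Kpna1, a nuclear import receptor, starts 40280 bp from Parp9 and fell by 0.46 in CKO (edgeR adjusted p = 0.00768) and by 0.52 in WT (edgeR adjusted p = 0.00391) on the log2 scale. Among those that rose, Pdia5 did so in CKO (log2 fold change 0.65 ± 0.22) and Ccdc58 (0.68 ± 0.15) and Fam162a (0.57 ± 0.16) in WT.

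Parp10, Parp11 and Parp12 add single ADP-ribose units. Parp12 carries zinc fingers and is known as an antiviral, interferon-stimulated protein, and Parp11 is known in mouse for its part in shaping the sperm head. Parp10 lies on chromosome 15 (chr15:76231174-76243441, minus strand), where 205 bp of its exons overlap those of Plec on the same strand. Parp11 (chr6:127446840-127494261, plus strand) and Parp12 (chr6:39086410-39118349, minus strand) share chromosome 6. The windows of Parp11 and Parp12 are printed together because one holds 3 matches and the other none, while both genes rose. Capitals again mark matches.
Parp11, first start, chr6:127446590-127446889, plus strand: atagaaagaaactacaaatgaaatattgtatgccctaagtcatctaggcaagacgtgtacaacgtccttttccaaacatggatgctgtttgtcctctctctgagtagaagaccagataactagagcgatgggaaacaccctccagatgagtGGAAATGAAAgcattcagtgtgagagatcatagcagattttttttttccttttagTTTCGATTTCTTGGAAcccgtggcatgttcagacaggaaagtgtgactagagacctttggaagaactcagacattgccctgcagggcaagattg
Parp12, chr6:39118300-39118599, minus strand: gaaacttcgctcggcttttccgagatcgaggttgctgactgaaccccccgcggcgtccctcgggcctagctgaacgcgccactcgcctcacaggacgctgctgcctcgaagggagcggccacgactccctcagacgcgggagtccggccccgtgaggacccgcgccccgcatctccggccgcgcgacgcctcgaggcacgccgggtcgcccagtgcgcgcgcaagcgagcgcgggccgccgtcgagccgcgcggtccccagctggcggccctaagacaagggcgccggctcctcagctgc

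In the Parp11 window, TTTCGATTTC (ISRE) lies 44 to 35 bases before the start and overlaps TTCTTGGAA (GAS) at 37 to 29 bases before it. GGAAATGAAA (Ets and IRF element) lies 99 to 90 bases before the start. RefSeq's table lists a second Parp11 start, whose window held none of the 4 motifs, and neither did the windows of Parp12, Parp8, Parp3 and Parp1. Windows were found for 6 of the 9 genes, and none was used for Parp9, Parp10 and Parp14.

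Parp12 reached 229.7 and 229 CPM in CKO with IFN-γ, against 39.3 and 39.1 CPM in untreated CKO. In WT it reached 119 and 127 CPM, against 40.0 and 36.2 CPM untreated. Untreated libraries of the genotypes overlapped, and the IFN-γ libraries did not. Its log2 fold change was 2.55 ± 0.12 in CKO (edgeR adjusted p = 1.15e-08) and 1.69 ± 0.11 in WT (edgeR adjusted p = 4.06e-07). The response was larger in the libraries labelled CKO by 0.86 ± 0.16 (edgeR's test of the difference, adjusted p = 0.0141). This call was lost in 4 of the 8 fits that left out 1 library. The difference was 0.82 without the first CKO IFN-γ library (edgeR adjusted p = 0.091), 0.82 without the second (edgeR adjusted p = 0.106), 0.81 without the first WT IFN-γ library (edgeR adjusted p = 0.0525) and 0.79 without the first untreated WT library (edgeR adjusted p = 0.0715).

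Parp10 was at 135 and 141 CPM in CKO with IFN-γ, against 27.2 and 24.5 CPM in untreated CKO. In WT it was at 72.9 and 69.0 CPM, against 21.9 and 17.9 CPM untreated. No library of one group reached the other, and the log2 fold changes were 2.42 ± 0.16 in CKO and 1.83 ± 0.15 in WT. Their difference of 0.59 ± 0.21 did not pass the test (edgeR adjusted p = 0.235). Parp11 was at 96.2 and 90.1 CPM in CKO with IFN-γ, against 18.6 and 16.1 CPM in untreated CKO. In WT, Parp11 was at 83.6 and 86.6 CPM, against 14.1 and 12.5 CPM untreated. Its log2 fold change was 2.43 ± 0.14 in CKO and 2.68 ± 0.14 in WT, and their difference of -0.25 ± 0.19 also did not pass (edgeR adjusted p = 0.675).

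Parp8, a less studied enzyme that adds single ADP-ribose units, was the only one of the 9 genes whose response to IFN-γ was smaller in CKO past the test. It lies at chr13:116854820-117025537 on the minus strand. Its promoter window is shown as the counterpart to that of Parp12, the other gene whose response differed. No motif was matched in it.
Parp8, chr13:117025482-117025781, minus strand: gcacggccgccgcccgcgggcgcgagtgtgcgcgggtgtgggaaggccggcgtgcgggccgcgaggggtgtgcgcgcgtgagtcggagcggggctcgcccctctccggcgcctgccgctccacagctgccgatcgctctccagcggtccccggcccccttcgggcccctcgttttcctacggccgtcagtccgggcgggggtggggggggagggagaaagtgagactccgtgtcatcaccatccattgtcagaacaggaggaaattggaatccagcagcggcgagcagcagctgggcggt

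Parp8 was at 34.7 and 36.2 CPM in CKO with IFN-γ, against 16.7 and 13.8 CPM in untreated CKO. In WT it was at 60.3 and 62.2 CPM with IFN-γ, against 9.82 and 10.1 CPM untreated. The 4 groups did not overlap, and the order of the genotypes turned round between treatments: CKO was above WT untreated and below it after IFN-γ. The rise was 1.22 ± 0.11 in CKO (edgeR adjusted p = 6.43e-06) and 2.62 ± 0.12 in WT (edgeR adjusted p = 1.17e-08) on the log2 scale. The response in CKO minus that in WT was -1.40 ± 0.16 (edgeR adjusted p = 0.00104), and it stayed past the test in all 8 fits that left out 1 library, between -1.53 and -1.29. For the difference of responses, 1 of 9 genes was higher and 1 lower in CKO, where 2.07% and 0.651% of all genes were. The dendritic cell markers had their highest sum in the group where Parp8 was highest. These 7 markers summed to 8.40 to 10.3 CPM in CKO with IFN-γ and 50.8 to 60.2 CPM in WT with IFN-γ, against 1.90 to 3.11 CPM in untreated CKO and 1.88 to 2.55 CPM in untreated WT. With IL-4, the same markers summed to 10.05 to 10.99 CPM in CKO and 7.26 to 8.25 CPM in WT, above both untreated groups. Parp8 was lowest in these IL-4 groups, at a mean of 7.27 CPM in CKO and 7.45 CPM in WT. The sums therefore did not follow the order of Parp8 over all groups. Most of the sum in WT with IFN-γ was Clec9a, at 43.7 and 52.7 CPM. Of the 5 markers tested, 3 were lower and none higher in CKO than in WT after IFN-γ, where 8.01% of all genes were lower and 10.4% higher. Mean levels after IFN-γ that ran the other way were 0.841 CPM in CKO and 0.264 CPM in WT for Zbtb46, 0.337 CPM in CKO and 0.235 CPM in WT for Flt3, and 0.299 CPM in CKO and 0.193 CPM in WT for Siglech. Ccr7 was at 0 in both untreated groups and in WT with IL-4. The 4 B cell markers also had their highest sum in WT with IFN-γ, at 0.662 to 0.683 CPM, with Pax5 at 0. The part of both lists in the Parp8 result was not tested.

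**Figure D2:**
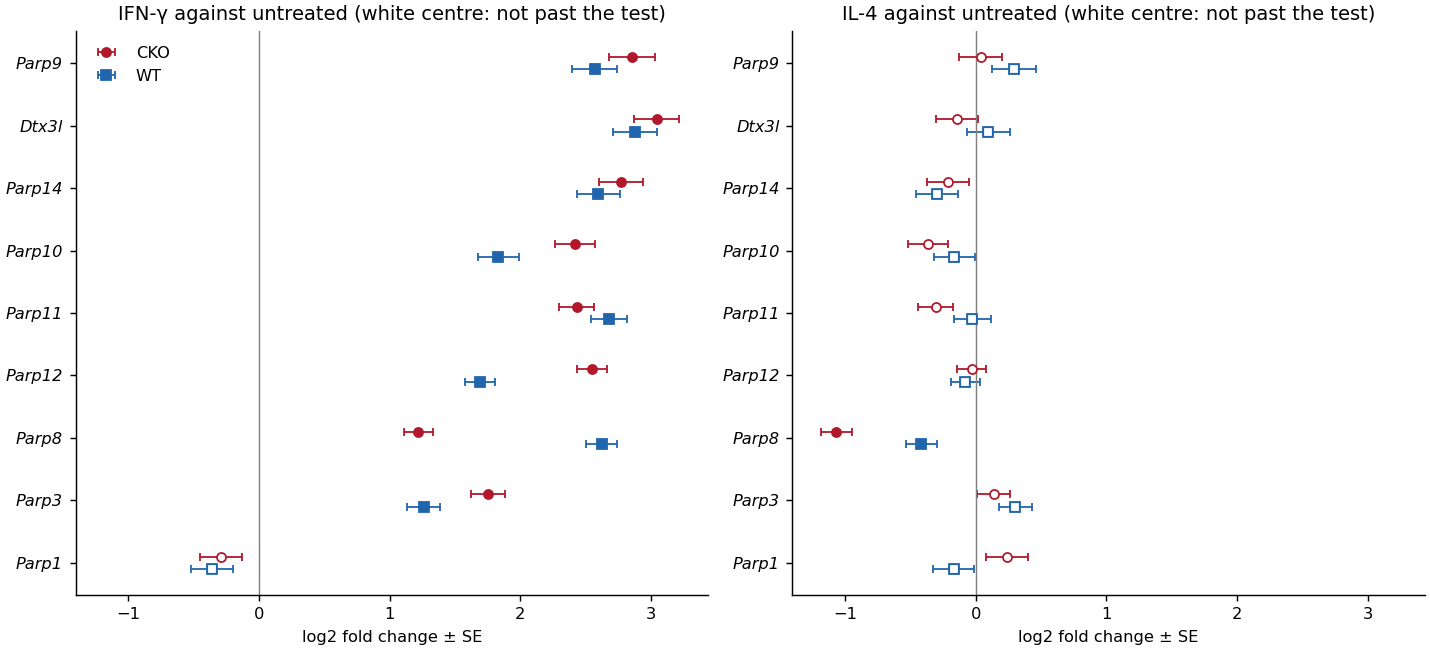
Response of each gene to IFN-γ (left) and to IL-4 (right) as log2 fold change against untreated ± SE, with CKO as red circles and WT as blue squares; a white centre means that the value did not pass edgeR's test. Parp8 stands at 1.22 in CKO and 2.62 in WT under IFN-γ, Parp12 at 2.55 in CKO and 1.69 in WT, and under IFN-γ Parp1 alone lies below 0.

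Parp3 and Parp1 act in the nucleus in the repair of DNA breaks. Parp3 (chr9:106470322-106476949, minus strand; 20 bp of exon shared with Rrp9 on the other strand) was at 88.8 and 92.5 CPM in CKO with IFN-γ, against 25.2 and 28.4 CPM in untreated CKO. In WT it was at 77.8 and 85.5 CPM, against 31.2 and 36.9 CPM untreated. Parp3 rose in both, by 1.75 ± 0.13 in CKO (edgeR adjusted p = 8.83e-07) and 1.26 ± 0.13 in WT (edgeR adjusted p = 1.57e-05) on the log2 scale, with no overlap. The difference of 0.49 ± 0.18 did not pass the test (edgeR adjusted p = 0.232).

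Parp1 (chr1:180568924-180601254, plus strand), the main maker of ADP-ribose chains, shares 7 bp of exon with Mir6904 on the same strand. It was at 116 and 128 CPM in CKO with IFN-γ, against 125 and 174 CPM in untreated CKO. In WT it was at 176 and 169 CPM with IFN-γ, against 218 and 224 CPM untreated. The CKO groups overlapped and the WT groups did not. Its log2 fold change was -0.29 ± 0.16 in CKO (edgeR adjusted p = 0.217) and -0.36 ± 0.16 in WT (edgeR adjusted p = 0.14), and it passed the test in 5 of 22 fits under other settings. One of these left out the first untreated CKO library, where the value in CKO was -0.53 (edgeR adjusted p = 0.0222). Of 12 repair partners of Parp1 tested, 1 rose and 1 fell in CKO, where 14.7% of all genes rose and 11.9% fell, and 1 rose in WT, where 12.4% rose. Their medians were 0.057 in CKO and 0.030 in WT on the log2 scale. Pcna, the sliding clamp of replication and repair, rose by 0.77 ± 0.14 in CKO (edgeR adjusted p = 0.00167) and by 0.47 ± 0.14 in WT (edgeR adjusted p = 0.0306). Aplf, a factor in break joining, was the one that fell, in CKO (-0.45 ± 0.14, edgeR adjusted p = 0.0331).

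Per kilobase of annotated exon, the order of the genes changed with IFN-γ. Parp1 stood first in all 4 groups without IFN-γ, at 28.2 ± 6.50 CPM per kb in untreated CKO and 41.8 ± 0.712 CPM per kb in untreated WT (SD, n = 2). With IFN-γ, the first place went to Dtx3l in CKO (82.6 ± 5.12 CPM per kb) and to Parp14 in WT (62.9 ± 1.63 CPM per kb). Parp1 was then at 23.1 ± 1.62 CPM per kb in CKO and 32.6 ± 1.02 CPM per kb in WT. Next after Dtx3l and Parp14 came Parp12 in CKO (57.4 ± 0.131 CPM per kb) and Parp9 in WT (33.4 ± 0.742 CPM per kb). Parp8 was lowest in every group, between 0.818 CPM per kb in CKO with IL-4 and 6.89 CPM per kb in WT with IFN-γ. The libraries were captured with exome probes, so levels per length also carry the efficiency of each gene's probes. The first place and the last place in each group were the same when the length of the longest transcript replaced that of all exons.

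**Figure D3:**
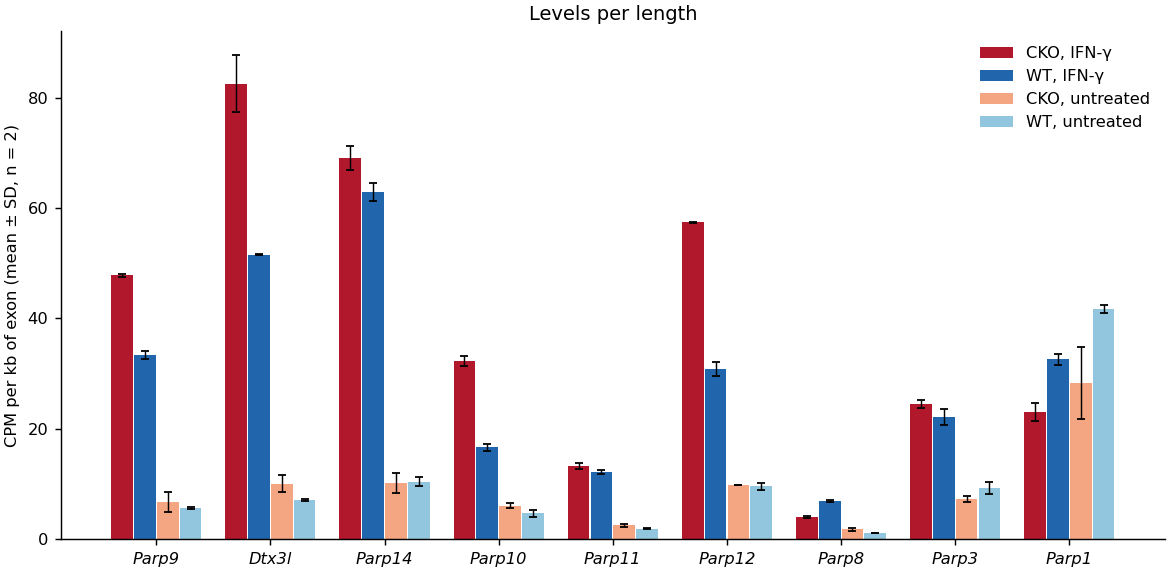
Mean level per kilobase of exon (CPM per kb ± SD, n = 2 libraries) for each gene with IFN-γ and untreated, CKO in reds and WT in blues. Dtx3l (82.6 in CKO) and Parp14 (62.9 in WT) are highest with IFN-γ, Parp1 is highest untreated (28.2 in CKO, 41.8 in WT), and Parp8 is lowest throughout.

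After IFN-γ, 4 of the 9 genes were higher and 1 was lower in the libraries labelled CKO than in WT, where 10.4% and 8.01% of all genes were. The 4 were Parp10, Parp12, Dtx3l and Parp9, and the 1 was Parp8. For all 5 the libraries of the genotypes did not overlap, at 135 and 141 CPM in CKO against 72.9 and 69.0 CPM in WT for Parp10. Nor did they for Parp1, Parp3, Parp11 and Parp14, which did not pass, so the lack of overlap does not set the 5 apart. The log2 fold changes were 0.96 ± 0.15 for Parp10 (edgeR adjusted p = 0.001), 0.90 ± 0.11 for Parp12 (edgeR adjusted p = 0.000202) and -0.79 ± 0.11 for Parp8 (edgeR adjusted p = 0.000466). Each of these 3 stayed past the test whichever library was left out. Dtx3l was higher by 0.68 ± 0.16 (edgeR adjusted p = 0.0119) and Parp9 by 0.52 ± 0.16 (edgeR adjusted p = 0.0468), and neither stayed past it with any 1 library left out. Dtx3l then gave 0.60 (edgeR adjusted p = 0.119) and 0.72 (edgeR adjusted p = 0.0564) without the first and second CKO library, and 0.68 without either WT library (edgeR adjusted p = 0.0647 and 0.0651). Parp9 gave 0.49 (edgeR adjusted p = 0.219) and 0.50 (edgeR adjusted p = 0.183) without the first and second CKO library, and 0.49 (edgeR adjusted p = 0.162) and 0.54 (edgeR adjusted p = 0.131) without the first and second WT library.

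Parp1 missed the threshold after IFN-γ (-0.50 ± 0.16, edgeR adjusted p = 0.0531), although all its CKO libraries lay below those of WT, and it passed under 5 other settings, among them DESeq2 (adjusted p = 0.0265). Parp3 (0.15 ± 0.12), Parp11 (0.13 ± 0.13) and Parp14 (0.13 ± 0.16) did not pass. Markers of other myeloid cells moved with genotype. The 10 neutrophil markers, none at 0, summed to 476 to 478 CPM in CKO and 93.1 to 106 CPM in WT after IFN-γ, and to 708 to 963 CPM in CKO and 226 to 235 CPM in WT untreated. The 6 monocyte markers, none at 0, summed to 305 to 315 CPM in CKO and 146 to 192 CPM in WT after IFN-γ, and to 578 to 613 CPM in CKO and 272 to 291 CPM in WT untreated. Large parts of the sums in untreated CKO came from Mmp8 (611 CPM) and F13a1 (494 CPM). After IFN-γ, Ly6g (0.094 CPM in CKO and 0.098 CPM in WT) and Ccr2 (88.3 and 88.1 CPM) were nearly equal. Of the 9 neutrophil markers tested, 8 were higher and 0 lower in CKO after IFN-γ. For the 6 monocyte markers these counts were 5 and 0. Over all genes, 10.4% were higher and 8.01% lower. After IL-4, the neutrophil markers summed to 415 to 482 CPM in CKO and 206 to 213 CPM in WT. The monocyte markers then summed to 225 to 271 CPM in CKO and 149 to 156 CPM in WT. In this comparison 7 neutrophil and 4 monocyte markers were higher in CKO and 0 lower, where 2.96% of all genes changed in either direction. None of the 9 genes described here differed there past edgeR's test. The part of these markers in the differences between genotypes was not tested.

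In untreated macrophages, 2 of the 9 genes were higher and 1 lower in the libraries labelled CKO, where 8.6% and 9.37% of all genes were. Parp8 was higher, at 16.7 and 13.8 CPM in CKO against 9.82 and 10.1 CPM in WT (log2 fold change 0.62 ± 0.12, edgeR adjusted p = 0.00532). Dtx3l was higher, at 63.7 and 51.0 CPM in CKO against 40.8 and 39.5 CPM in WT (0.51 ± 0.16, edgeR adjusted p = 0.0482). Parp1 was lower, at 125 and 174 CPM in CKO against 218 and 224 CPM in WT (-0.56 ± 0.16, edgeR adjusted p = 0.0345). The libraries of the genotypes did not overlap for any of the 3, nor for Parp3, Parp10 and Parp11, which did not pass. The 2 CKO libraries were far apart for Parp1, and the one that stood apart was the more extreme for each of the 3 genes. Without that first CKO library, Parp8 stayed past the test (0.48, edgeR adjusted p = 0.0345), and Dtx3l (0.35, edgeR adjusted p = 0.303) and Parp1 (-0.34, edgeR adjusted p = 0.221) did not. Leaving out the first WT library lost all 3, Parp8 at 0.60 (edgeR adjusted p = 0.0512), Dtx3l at 0.54 (edgeR adjusted p = 0.152) and Parp1 at -0.58 (edgeR adjusted p = 0.111). Leaving out the second WT library lost Dtx3l at 0.49 (edgeR adjusted p = 0.192) and Parp1 at -0.55 (edgeR adjusted p = 0.135). Without the second CKO library, Parp9 (0.50, edgeR adjusted p = 0.0203) and Parp11 (0.49, edgeR adjusted p = 0.0339) passed as well, and that group was then the library that stood apart.

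**Figure D4:**
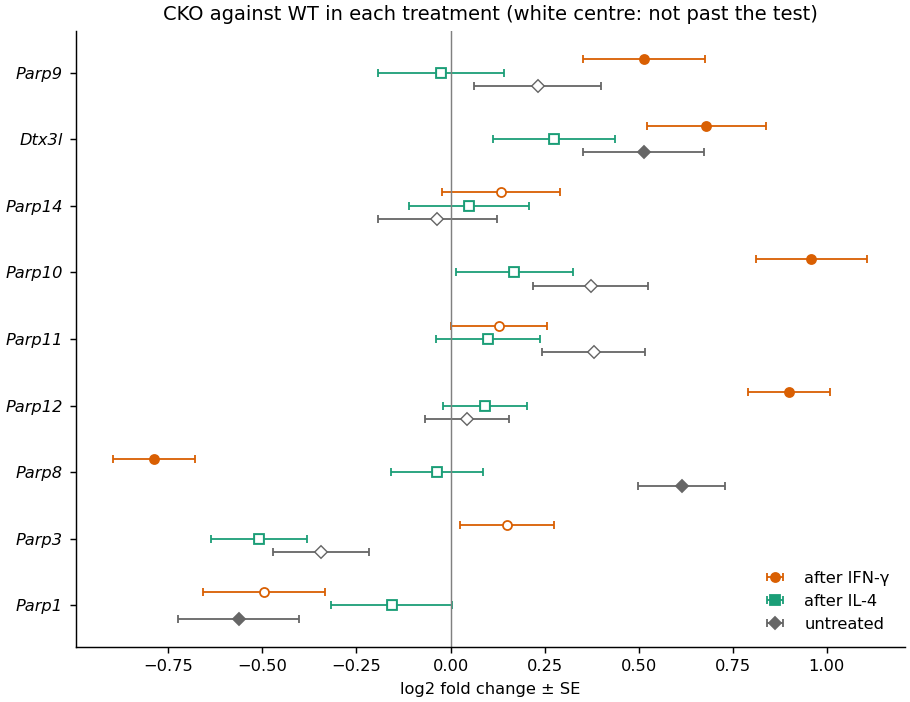
Log2 fold change ± SE of libraries labelled CKO against WT for each gene after IFN-γ (orange circles), after IL-4 (green squares) and untreated (grey diamonds); a white centre means that the value did not pass edgeR's test. Parp10 (0.96) and Parp12 (0.90) lie farthest to the right after IFN-γ, and Parp8 stands at -0.79 after IFN-γ and 0.62 untreated.

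IL-4 moved 1 of the 9 genes past the test in each genotype, and it was Parp8, which fell. This is 1 of 9 lower where 11.3% of all genes were lower in CKO and 5.59% in WT. Parp8 was at 7.42 and 7.12 CPM in CKO with IL-4, against 16.7 and 13.8 CPM in untreated CKO. In WT it was at 7.57 and 7.33 CPM with IL-4, against 9.82 and 10.1 CPM untreated. The IL-4 libraries of both genotypes lay together, below all untreated ones. The log2 fold change was -1.07 ± 0.12 in CKO (edgeR adjusted p = 6.77e-05), which stayed past the test without any 1 library (-1.20 to -0.93). In WT it was -0.42 ± 0.12 (edgeR adjusted p = 0.0435), and leaving out any 1 library ended the call, with -0.45 (edgeR adjusted p = 0.151) and -0.40 (edgeR adjusted p = 0.18) without the first and second untreated library, and -0.45 (edgeR adjusted p = 0.176) and -0.40 (edgeR adjusted p = 0.24) without the first and second IL-4 library. DESeq2 did not call it either (adjusted p = 0.0602). The difference of the IL-4 responses of Parp8, CKO minus WT, was -0.65 ± 0.17 and did not pass (edgeR adjusted p = 0.543), but it passed without the second untreated CKO library (-0.77, edgeR adjusted p = 0.0369).

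The other 8 genes did not pass the test with IL-4. Parp14, the partner of STAT6 in IL-4 signalling, was at 96.2 and 67.0 CPM in CKO with IL-4, against 106 and 82.5 CPM in untreated CKO, and at 80.3 and 77.4 CPM in WT with IL-4, against 102 and 91.1 CPM untreated. Its groups overlapped in CKO and not in WT, with log2 fold changes of -0.21 ± 0.16 in CKO and -0.30 ± 0.16 in WT. All 9 tested genes of a list of 10 IL-4 and STAT6 targets rose in both genotypes, where 11.2% of all genes rose in CKO and 6.64% in WT, with a median log2 fold change of 6.68 in CKO and 5.69 in WT. Without the first CKO IL-4 library, 4 further genes passed in CKO, all lower: Parp10 (-0.63, edgeR adjusted p = 0.0123), Parp11 (-0.49, edgeR adjusted p = 0.0334), Parp14 (-0.49, edgeR adjusted p = 0.0399) and Dtx3l (-0.46, edgeR adjusted p = 0.0361). Without the second untreated CKO library, Parp1 passed, higher (0.50, edgeR adjusted p = 0.0332). In WT, Parp9 (0.29, edgeR adjusted p = 0.0271) and Parp14 (-0.30, edgeR adjusted p = 0.0232) passed when only the WT untreated and IL-4 groups were in the model.

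After IL-4, none of the 9 genes differed between the genotypes past edgeR's test, where 2.96% of all genes did, and 1 did at an unadjusted p under 0.05 and 1 with DESeq2. That gene was Parp3, at 26.8 and 32.3 CPM in CKO against 39.6 and 44.5 CPM in WT with no overlap (log2 fold change -0.51 ± 0.13, edgeR adjusted p = 0.0599). It passed edgeR's test without the second CKO IL-4 library (-0.63, adjusted p = 0.0386). No difference of IL-4 responses passed for the 9 genes, where 0.0368% of all genes did; 1 gene, Parp8, had an unadjusted p under 0.05, and DESeq2 called 0.

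In the order of the 6 groups, the 4 genes Parp9, Parp10, Parp12 and Dtx3l had CKO with IFN-γ first and WT with IFN-γ second, and these neighbours differed past the test. Parp3, Parp11 and Parp14 had the same first and second group, which did not differ past it. In all 7, WT with IFN-γ differed from the third group, and no neighbours below the third place did. Parp8 began with WT with IFN-γ, and only its lowest neighbours, CKO with IL-4 and WT with IL-4, did not differ past it (7.27 ± 0.211 and 7.45 ± 0.174 CPM, edgeR adjusted p = 0.952). For Parp1, with CKO given IFN-γ lowest and untreated WT highest, no neighbours differed.

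Other genes of ADP-ribose biology were counted from lists made from textbook knowledge, with earlier results of these data known. Of 8 other ADP-ribosyltransferases, all tested, 1 rose and 1 fell with IFN-γ in each genotype, where 14.7% of all genes rose and 11.9% fell in CKO and 12.4% rose and 11.8% fell in WT. Their median log2 fold change was 0.036 in CKO and 0.054 in WT. Zc3hav1, the antiviral zinc-finger protein also called PARP13, was the one that rose, by 0.68 ± 0.08 in CKO (edgeR adjusted p = 8.37e-05) and 0.48 ± 0.08 in WT (edgeR adjusted p = 0.00118). Tnks2, a tankyrase, fell in CKO (-0.37 ± 0.10, edgeR adjusted p = 0.0134), and Parp16, an enzyme of the endoplasmic reticulum, fell in WT (-0.77 ± 0.24, edgeR adjusted p = 0.0369). With IL-4, Tnks2 fell in CKO (-0.29 ± 0.10, edgeR adjusted p = 0.0478) and Tiparp rose in WT (0.72 ± 0.12, edgeR adjusted p = 0.00197). Of 7 genes for removal of ADP-ribose, edgeR called 0 with IFN-γ in either genotype, DESeq2 called 0, and 1 in CKO and 0 in WT had an unadjusted p under 0.05 (medians -0.098 in CKO and 0.051 in WT). Adprhl2, a hydrolase that releases ADP-ribose from serine, was lower in CKO than in WT after IFN-γ (-0.46 ± 0.10, edgeR adjusted p = 0.00816).

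Of 15 genes for NAD supply and use, the substrate side of these enzymes, 12 were tested, and 5 rose and 1 fell with IFN-γ in each genotype (median log2 fold change 0.18 in CKO and 0.25 in WT). Over all genes, 14.7% rose and 11.9% fell in CKO, and 12.4% rose and 11.8% fell in WT. Nampt, the rate-limiting enzyme of NAD salvage, was at 1388 ± 3.64 CPM in CKO with IFN-γ and 239.9 ± 53.9 CPM in untreated CKO, and at 1071 ± 24.3 CPM in WT with IFN-γ and 176 ± 10.1 CPM in untreated WT (SD, n = 2). Bst1, an ectoenzyme that consumes NAD, rose by 4.63 ± 0.13 in CKO and 3.49 ± 0.12 in WT on the log2 scale, and its response was larger in CKO by 1.13 ± 0.16 (edgeR adjusted p = 0.00362). Cd38, the other such ectoenzyme, and Ido1 and Kynu of tryptophan breakdown rose too, and Nmrk1, a nicotinamide riboside kinase, fell. Of the 4 other Deltex ligases, relatives of Dtx3l, 1 fell with IFN-γ in each genotype and none rose (median -0.43 in CKO and -0.23 in WT), where 11.9% of all genes fell in CKO and 11.8% in WT. This was Dtx4, at 31.3 ± 0.791 CPM in CKO with IFN-γ and 85.4 ± 1.46 CPM in untreated CKO, and at 28.5 ± 1.22 CPM in WT with IFN-γ and 60.9 ± 0.60 CPM in untreated WT (SD, n = 2).

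Of 16 genes of IFN-γ and IL-4 signalling, 12 rose with IFN-γ in each genotype, where 14.7% of all genes rose in CKO and 12.4% in WT, with medians of 1.63 in CKO and 1.33 in WT on the log2 scale. After IFN-γ, 8 were higher and none lower in CKO than in WT, with a median of 0.35. Among those with the smallest adjusted p were Irf7 (1.67 ± 0.11), Irf8 (1.23 ± 0.11) and Il2rg (0.95 ± 0.15), all higher in CKO on the log2 scale. The 8 of 16 stand beside 4 of the 9 genes described here and 10.4% of all genes.

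The genes whose profiles lay closest to each of the 9 over the 12 libraries were found among 8597 candidates, by the root mean square difference between log2 CPM profiles, each centred on its mean. For Parp10 and Parp12 these included Ifih1, a sensor of viral RNA (0.13 and 0.12 log2 units). For Parp14 they were Rnf213 (0.10) and Trafd1 (0.13), for Dtx3l Mndal (0.10) and H2-Q4 (0.12), for Parp9 Tapbp (0.13) and Nampt (0.14), and for Parp11 Themis2 (0.16) and Nampt (0.16). Parp3 lay closest to Nt5c3 (0.15) and Xkr8 (0.17), and Parp1 to Fancm (0.09) and Ulbp1 (0.10). The closest genes to Parp8 were farther off, Peli1 at 0.33 and Crim1 at 0.36. Among the 9 genes, the closest pairs were Parp10 and Parp12 (0.16) and Parp11 and Parp14 (0.17), closer than Parp9 and Dtx3l (0.23). The distances are a description of these 12 libraries.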

How the data were processed

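The authors deposited raw counts per gene for 12 libraries, prepared with an RNA exome kit per the labels' protocols. Per the submitters' processing notes, CASAVA 1.8.2, Picard 1.97, HTSeq 0.6.1 and TopHat2 2.0.13 were used, and the builds named are GRCh38 and mm10, with no roles. Identifiers are mouse Ensembl ones. Neither the annotation release nor the strandedness of the counting is given there. Of 48440 genes, 22932 had no count and 16292 passed edgeR's filterByExpr over the 6 groups. Positions and exon lengths came from GENCODE M21 on GRCm38 (48058 identifiers matched without their version). CPM used TMM-scaled library sizes.

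One edgeR 4.0.16 quasi-likelihood fit (R 4.3.3) covered all 12 libraries with a mean per group, which leaves 6 residual degrees of freedom, and gave each comparison, with Benjamini-Hochberg adjustment at 0.05 over all genes tested. The SE, the size of the log2 fold change divided by √F, is approximate. A difference of responses is CKO minus WT. The 2 libraries of each group differed by more than counting noise. The chi-square per degree of freedom ran from 4.72 in WT with IL-4 to 83.8 in untreated CKO. Alternatives were DESeq2 1.42.0, its size factors in edgeR, no filter, a mean CPM of at least 5, only the compared groups, a replicate block and leaving out 1 library at a time. A group reduced to 1 library is assumed to vary like the others. The fits were tested on simulated counts.

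The 9 genes and the lists were chosen with earlier results of these data known. By the naming rule, all 9 genes are named, with up to 4 genes of each list by adjusted p, the 2 genes of closest profile (mean log2 CPM of at least 3), and tested genes that start within 500 kb of Parp9. Neighbours that changed with IFN-γ are named. Clec9a, Ccr7, Zbtb46, Flt3, Siglech, Pax5, Cd3e, Cd4, Mmp8, F13a1, Ly6g, Ccr2 and Lyz2 are named as markers. These, like Nmrk1, were picked after their values were seen. Hpf1 is listed in the file as 2700029M09Rik. Some genes of the lists are not reported by name.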

Additional observations from a re-analysis of the deposited data

Results flagged for a closer look

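Parp8 and Parp12 answered IFN-γ to a different extent in the genotypes, and both differences of responses were tested directly in edgeR's fit of group means. The response of Parp8 in the libraries labelled CKO minus that in WT was -1.40 ± 0.16 on the log2 scale (edgeR adjusted p = 0.00104), a smaller rise in CKO. For Parp12 the same difference was 0.86 ± 0.16 (edgeR adjusted p = 0.0141), a larger rise in CKO. The Parp8 call held in all 8 fits that left out 1 library, and the Parp12 call was lost in 4 of 8 (edgeR adjusted p = 0.0525 to 0.106). Irf8 counts were higher in the libraries labelled CKO, and that label names no gene, so both directions are those of the labels.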

How the results depend on the processing

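Of 936 fits of single genes under other settings, 842 kept the direction and side of the threshold, 28 lost a call, 33 gained one and 33 changed sign, each between values that did not pass. The cause of the changes was not tested. Genes called among the 9 moved as follows. When the fit held just the compared groups, the untreated genotype comparison gave 0 in place of 3 and IL-4 in WT 3 in place of 1. For CKO against WT after IL-4, DESeq2 and no filter each gave 1 in place of 0. For IL-4 in WT, DESeq2 and no filter each gave 0. Leaving out 1 library gave 0 to 5 for the untreated genotype comparison, 3 in every fit for that after IFN-γ (5 with all libraries), 0 to 1 for that after IL-4, 1 to 5 for IL-4 in CKO, 0 in every fit for IL-4 in WT, 1 to 2 for the difference of IFN-γ responses and 0 to 1 for that of IL-4 responses. IFN-γ gave 8 to 9 in CKO and 8 in every fit in WT.

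The library numbers 1 and 2 are shared by all groups. As 2 numbers cannot show pairing, the replicate block is given as an alternative only. With the block over all libraries, 6 genes in place of 3 were called in the untreated genotype comparison, 1 in place of 0 after IL-4 and 2 in place of 1 with IL-4 in CKO and in WT. With the block within genotype, IL-4 gave 3 in CKO and 2 in WT, the difference of IFN-γ responses of Parp3 passed (0.50, edgeR adjusted p = 0.0354), and Parp1 passed as lower with IFN-γ in CKO (-0.27, edgeR adjusted p = 0.0393) and WT (-0.36, edgeR adjusted p = 0.00952). Deviations of same-numbered libraries correlated at 0.10 to 0.43 within genotype and at -0.0055 to 0.26 across genotypes, over genes, which are not independent.

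Over all genes tested, counts of calls moved by more than 1.5 times in these cases. The untreated genotype comparison called 2927 genes, and 866 with only its groups. CKO against WT after IL-4 called 482, and 290 at a mean CPM of at least 5, 1129 with no filter and 860 with the replicate block. IL-4 called 3664 in CKO and 1247 with only its groups, and 1992 in WT, 3584 with only its groups and 3023 with the block within genotype. The difference of IFN-γ responses called 443, and 1019 with no filter, 293 with only its groups, and 731 and 1080 with the blocks. The difference of IL-4 responses called 6, and 42 with DESeq2, 291 with no filter, 0 with only its groups, and 26 and 85 with the blocks. Leaving out 1 library gave 875 to 5005 (untreated), 1218 to 1879 (after IFN-γ, 2995 with all libraries), 128 to 633 (after IL-4), 2702 to 5221 (IFN-γ in CKO, 4333 with all), 2617 to 3106 (IFN-γ in WT, 3933 with all), 1711 to 5214 (IL-4 in CKO), 893 to 1050 (IL-4 in WT), 118 to 1008 (difference for IFN-γ) and 1 to 371 (difference for IL-4).

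The sign changes came with log2 values, with all libraries, from -0.26 (Parp9, difference of IL-4 responses) to 0.27 (Dtx3l, CKO against WT after IL-4). For CKO against WT after IL-4, Parp9 was at -0.026, and at 0.0021 with no filter and 0.0046 at a mean CPM of at least 5. The others came with 1 library left out. For CKO against WT untreated the values then ran between -0.22 and 0.14 for Parp14, -0.027 and 0.12 for Parp12 and -0.071 and 0.50 for Parp9. After IL-4 they ran between -0.24 and 0.18 for Parp9, -0.39 and 0.054 for Parp1, -0.097 and 0.42 for Parp10, -0.088 and 0.29 for Parp11, -0.081 and 0.26 for Parp12, -0.23 and 0.31 for Parp14, -0.043 and 0.55 for Dtx3l and -0.065 and 0.013 for Parp8. For IL-4 in CKO they ran between -0.46 and 0.12 for Dtx3l, -0.22 and 0.34 for Parp9, -0.0036 and 0.50 for Parp1, -0.20 and 0.13 for Parp12 and -0.49 and 0.031 for Parp14. For IL-4 in WT, Parp11 ran between -0.12 and 0.052. For the difference of IFN-γ responses Parp1 ran between -0.18 and 0.33. For that of IL-4 responses they ran between -0.12 and 0.22 for Parp12, -0.50 and 0.056 for Parp9, -0.20 and 0.34 for Parp14, -0.47 and 0.045 for Parp10 and -0.56 and 0.043 for Dtx3l. Of 54 levels per kilobase, 52 moved by more than 1 SD with the longest transcript as length. Each group had only 2 libraries, which limits every result.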
